A study of Homo sapiens with 4 samples.

Results

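The interferon-stimulated and RNA-sensing genes were followed in 4 RNA libraries of MDA-MB-231, an established line of triple-negative breast cancer of human origin. Members were taken by gene name from a list of 48 genes, and 43 of them were listed in all 4 gene tables, among 11288 genes that were. USP18 was listed in the tables of 1 pair of libraries only, and OAS1, MX2, CMPK2 and RSAD2 were listed in none. The first pair held RNA that an antibody to PABPC1, coupled to magnetic beads, pulled out of cell lysate (the PABPC1 pulldown) and the input RNA, PABPC1 being the main cytoplasmic poly(A)-binding protein. An IgG control is named in the protocol but was not analysed here, so binding to the beads themselves has no measure. The second pair held RNA of cells in which LINC00882, a long non-coding RNA, was silenced by transfection (si_LINC00882) and of cells given a control silencer (si_NC). All cells were grown in L15 medium with serum, and the knockdown reagent is called an siRNA in one label and a Smart Silencer in another. Each group was 1 library of this cell line, so there is no replicate error and no test, and every difference describes these libraries only.

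Interferons are cytokines that cells release when they sense viral nucleic acid. Inside the cell, RIG-I (DDX58) and MDA5 (IFIH1) bind viral RNA and signal through the adaptor MAVS to the kinases TBK1 and IKKε, which activate IRF3 and IRF7. Secreted type I interferon then acts through its receptor and the kinases JAK1 and TYK2, and STAT2 and IRF9 are subunits of the factor ISGF3 that they activate. ISGF3 binds the interferon-stimulated response element in the promoters of the induced genes. These genes encode proteins that degrade or edit RNA, block translation or stop viral entry and release, and many are held at a basal level in tumour cells without infection.

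Levels are FPKM as deposited, that is, fragments per kilobase of transcript relative to all mapped fragments of the library, so they can be set against each other between genes. Differences are log2 ratios of FPKM plus 1, which understate the change of genes with low values, and a ratio of 1 in either direction is called 2-fold. A gene was compared in a pair when it reached 1 FPKM in either library. Of the summed FPKM, mRNAs encoded in mitochondria made up 3.08% in the pulldown and 47.3% in input, against 19.3% in si_LINC00882 and 16.3% in si_NC. The median of all genes compared was 0.47 for the pulldown over input. The mesenchymal markers VIM, CD44, CAV1, MMP14, AXL and FN1 were present in all 4 libraries. VIM stood between 155 and 367 FPKM and FN1 between 6.09 and 85.7. Of the epithelial and luminal markers KRT8, KRT18, EPCAM, ERBB2 and GATA3 had values, while CDH1, ESR1 and PGR had no value in any library. KRT8 stood between 30.7 and 36.3 FPKM and KRT18 between 36.2 and 53.3. Leukocyte and fibroblast markers with a value (CD14, PDGFRB and LUM) stood at 1.61 FPKM or below, and the endothelial ones had no value in any library. The rule by which genes were listed is not known, so a missing value need not mean no expression. In RNA from bulk cultures, fewer expressing cells and less RNA per cell cannot be told apart.

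Most members were expressed at low levels, and a few membrane and secreted products stood far above the rest. The median member level was 3.73 FPKM in the pulldown, 2.64 in input, 3.48 in si_LINC00882 and 3.71 in si_NC, below the median of all genes in each library (6.92, 4.34, 6.08 and 6.11 in the same order). At the top in the pulldown and input were IFITM3, which blocks fusion of viruses in endosomes, and BST2 (tetherin), which holds budding virions at the cell surface. In si_NC LGALS3BP stood above both, and in si_LINC00882 it stood between IFITM3 and BST2. These 2 genes made up 49.1% of the summed member FPKM in the pulldown, 46.2% in input, 33.4% in si_LINC00882 and 28.3% in si_NC. LGALS3BP, a secreted galectin-binding glycoprotein, stood at 31.1 FPKM in the pulldown and 26.5 in input, with 67.2 in si_LINC00882 cells against 65.8 in si_NC cells. ISG15, the ubiquitin-like protein that is conjugated to other proteins, stood at 39.7 FPKM in the pulldown and 36.7 in input, with 22.9 in si_LINC00882 cells against 26.1 in si_NC cells. At the low end were ISG20, an RNA exonuclease, between 0.147 and 0.535 FPKM, MX1, a dynamin-like antiviral GTPase, between 0.365 and 1.20 FPKM, and DHX58 (LGP2), the RIG-I-like regulator of both sensors, between 0.133 and 0.950 FPKM. Of the RNA sensors, DDX58 stood at 6.90 FPKM in the pulldown and 3.14 in input, with 6.51 in si_LINC00882 cells against 8.30 in si_NC cells. IFIH1 stayed between 1.16 and 1.82 FPKM in the 4 libraries. In the IFIT family of RNA-binding proteins, IFIT3 was highest in every library, between 10.6 and 13.9 FPKM, with IFIT5 between 6.53 and 11.1, IFIT1 between 2.64 and 4.77 and IFIT2 between 2.71 and 4.21.

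**Figure D1:**
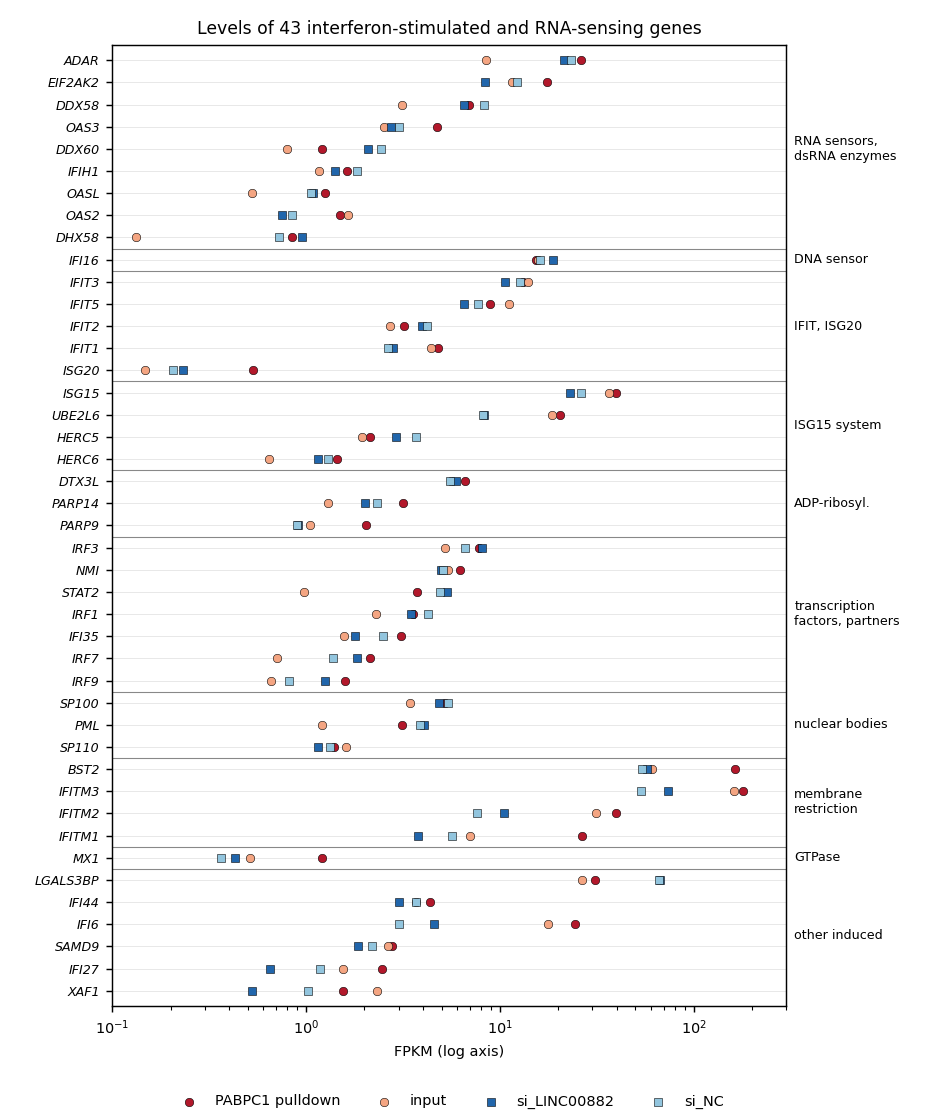
FPKM on a log axis for the 43 members in the PABPC1 pulldown, input, si_LINC00882 and si_NC libraries, grouped by role and ordered within a role by the si_NC level. Each point is 1 library. IFITM3, BST2 and LGALS3BP lie at the right, and ISG20 and MX1 at the left. The input point lies to the left of the other 3 for 21 of the members.

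The letters of the interferon-stimulated response element were found next to the start site of most members. RefSeq windows of 300 bases (from 250 before to 50 after the start site, GRCh38.p14) were searched on both strands for GAAA, any 2 bases and GAAA again. A window was held for 35 of the 43 members, and 23 of the 35 (65.7%) had at least 1 match in a window of theirs, against 4.38% of the 27305 genes with a window. At least 2 matches, which may overlap, were found for 13 of the 35 (37.1%), against 0.311% of all genes with a window. With a C required after the last A the numbers were 20 of 35 (57.1%) and 0.952%. Members without a match were ADAR, DDX58, HERC6, IFI16, IFI35, IRF1, IRF9, SP100, SP110, STAT2, UBE2L6 and XAF1. A match describes letters in these windows and not a bound site. The list was made of interferon-stimulated and RNA-sensing genes, so a high share was given by how it was made.

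Windows of 7 members whose values are described in the following paragraphs are printed from the gene's own strand, with each match in capitals. IFITM1 and IFITM3 are neighbours with 2 matches each close to the start site, BST2 has 2 overlapping matches, STAT2 has none, IFI6 has 3, EIF2AK2 has 1, and the match of DTX3L lies where its window overlaps that of its head-to-head neighbour PARP9.
IFITM1, chr11:313790-314089, plus strand: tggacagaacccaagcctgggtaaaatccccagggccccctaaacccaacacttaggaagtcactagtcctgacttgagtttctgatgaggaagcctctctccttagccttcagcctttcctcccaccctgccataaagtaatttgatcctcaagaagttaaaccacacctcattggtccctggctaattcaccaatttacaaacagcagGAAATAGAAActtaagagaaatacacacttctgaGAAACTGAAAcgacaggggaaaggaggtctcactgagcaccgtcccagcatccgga
IFITM3, chr11:320811-321110, minus strand: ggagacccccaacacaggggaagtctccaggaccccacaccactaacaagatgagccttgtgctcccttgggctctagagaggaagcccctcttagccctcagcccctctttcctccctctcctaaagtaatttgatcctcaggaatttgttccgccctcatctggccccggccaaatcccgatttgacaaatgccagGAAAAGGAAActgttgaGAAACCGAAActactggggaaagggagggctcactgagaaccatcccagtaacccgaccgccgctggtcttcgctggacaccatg
BST2, chr19:17405581-17405880, minus strand: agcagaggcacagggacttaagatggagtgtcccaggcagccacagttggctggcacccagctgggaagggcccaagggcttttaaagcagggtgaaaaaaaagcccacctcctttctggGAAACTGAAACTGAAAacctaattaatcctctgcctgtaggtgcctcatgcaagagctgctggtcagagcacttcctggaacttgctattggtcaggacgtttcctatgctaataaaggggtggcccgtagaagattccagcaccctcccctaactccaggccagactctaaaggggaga
STAT2, chr12:56360058-56360357, minus strand: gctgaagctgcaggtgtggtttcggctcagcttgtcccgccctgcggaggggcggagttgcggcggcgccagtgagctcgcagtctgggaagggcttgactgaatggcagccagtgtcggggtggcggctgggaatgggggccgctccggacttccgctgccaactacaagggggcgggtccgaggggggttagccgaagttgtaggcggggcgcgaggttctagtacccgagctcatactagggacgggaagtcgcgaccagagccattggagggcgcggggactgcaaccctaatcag
IFI6, chr1:27672143-27672442, minus strand: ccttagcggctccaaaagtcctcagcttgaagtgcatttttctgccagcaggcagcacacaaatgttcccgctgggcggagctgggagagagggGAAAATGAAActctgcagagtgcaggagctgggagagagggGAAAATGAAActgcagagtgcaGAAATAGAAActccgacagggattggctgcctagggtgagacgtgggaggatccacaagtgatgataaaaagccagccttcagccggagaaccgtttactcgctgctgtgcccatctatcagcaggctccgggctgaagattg
EIF2AK2, chr2:37156931-37157230, minus strand: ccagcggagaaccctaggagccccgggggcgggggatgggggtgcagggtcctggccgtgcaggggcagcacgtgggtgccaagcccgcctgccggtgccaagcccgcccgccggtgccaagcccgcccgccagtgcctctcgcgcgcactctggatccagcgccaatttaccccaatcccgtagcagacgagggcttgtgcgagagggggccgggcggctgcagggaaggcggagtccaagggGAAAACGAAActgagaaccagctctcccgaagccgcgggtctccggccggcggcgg
DTX3L, chr3:122564088-122564387, plus strand: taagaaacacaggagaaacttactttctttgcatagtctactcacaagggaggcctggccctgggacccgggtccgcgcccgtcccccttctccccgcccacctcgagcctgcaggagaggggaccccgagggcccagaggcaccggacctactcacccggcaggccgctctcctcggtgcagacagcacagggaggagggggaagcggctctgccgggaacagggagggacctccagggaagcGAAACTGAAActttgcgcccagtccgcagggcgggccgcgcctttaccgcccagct

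The first base of the matches lay 40 and 6 bases before the start site in IFITM1, and 52 and 35 bases before it in IFITM3. In IFI6, a small membrane protein gene, the matches began 156, 115 and 93 bases before the start, and the overlapping pair of BST2 began 130 and 124 bases before it. EIF2AK2 and DTX3L each had theirs 6 bases before the start. Members with a match had a median log2 ratio of 0.28 for the pulldown over input (23 genes), against 0.53 for those without (12 genes). For si_LINC00882 over si_NC the medians were -0.14 with a match and -0.12 without. For input over si_NC they were 0.10 with and -0.46 without, and the ranges overlapped widely (-1.28 to 2.23 and -1.59 to 1.09).

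**Figure D2:**
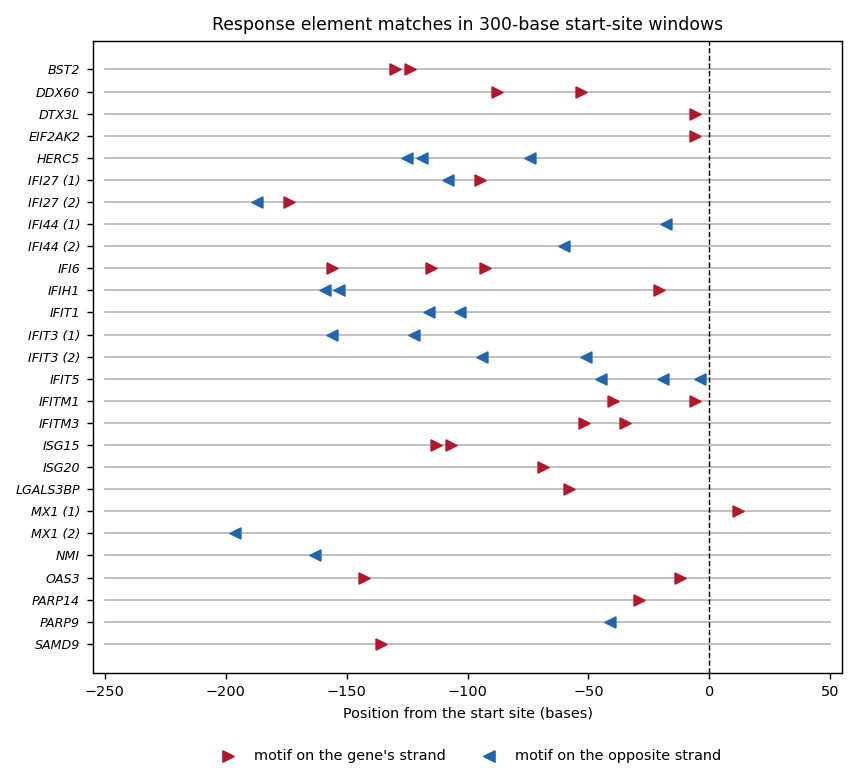
Position of each response element match, in bases from the start site, in the 27 member windows that hold one. Right-pointing red marks lie on the gene's strand and left-pointing blue marks on the opposite strand; the dashed line is the start site, numbers in brackets tell apart several windows of a gene, and most matches lie between 160 bases before the start and the start itself.

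In the PABPC1 pulldown, 4 of 41 members compared stood 2-fold or more above input and none 2-fold below (2.37% of all genes were). They were IFITM1, ADAR, BST2 and STAT2. Of all genes compared 19.6% were 2-fold higher, and of the members compared 9.76%. The median log2 ratio was 0.43 over the members and 0.47 over all genes. Over all 43 listed members it was also 0.43, with 37 above 0 (76.2% of all genes listed were) and 6 below. Of the members compared, 7 passed the minimum only through their pulldown level, among them STAT2.

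IFITM1, a restriction factor of the plasma membrane, stood at 26.4 FPKM in the pulldown and 6.97 in input, a log2 ratio of 1.78. In si_LINC00882 it stood at 3.78 FPKM and in si_NC at 5.66, so the pulldown library was above the other 3. BST2 stood at 162 FPKM in the pulldown and 60.9 in input (1.40), with 57.3 in si_LINC00882 cells against 53.8 in si_NC cells. The input, si_LINC00882 and si_NC libraries thus held BST2 at similar levels, and the pulldown alone was high. ADAR, which edits adenosine to inosine in double-stranded RNA, stood at 26.3 FPKM in the pulldown and 8.51 in input (1.52). Its levels of 21.3 FPKM in si_LINC00882 and 23.2 in si_NC lay close to the pulldown, so that input was the library that stood apart. The same held for STAT2, an ISGF3 subunit, at 3.73 FPKM in the pulldown and 0.970 in input (1.26), with 5.36 in si_LINC00882 and 4.91 in si_NC. Over the si_NC library in place of input, the pulldown ratios were 2.04 for IFITM1, 1.58 for BST2, 0.17 for ADAR and -0.32 for STAT2. With the pair centred on the median of all genes, BST2 (0.93) and STAT2 (0.80) were under 2-fold, while IFITM1 (1.32) and ADAR (1.06) were past it.

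By role, the transcription factors and their partners were above input in 7 of 7 members, with a median of 0.64. Of all genes compared, 76.1% were above 0 with a median of 0.47. STAT2, IRF7 and IRF9 of this role passed the minimum only through their pulldown level. Over si_NC in place of input, 5 of the 7 factors and partners were above 0 and the median of the 7 was 0.22. Of all genes compared over si_NC, 61.5% were above 0 with a median of 0.16. IRF7, the inducible factor that amplifies interferon production, stood at 2.14 FPKM in the pulldown and 0.704 in input (0.88), and IRF9, also an ISGF3 subunit, at 1.59 and 0.662 FPKM (0.64). IRF3, the factor that is present before induction, stood at 7.77 FPKM in the pulldown and 5.19 in input (0.50). The RNA sensors and enzymes of double-stranded RNA were above input in 8 of 9 members, with a median of 0.56. They were above si_NC in 6 of 9, with a median of 0.13. Of all genes compared, 76.1% were above input and 61.5% above si_NC, with medians of 0.47 and 0.16. Among these sensors and enzymes, DDX60 and OASL passed the minimum only through their pulldown level. DHX58, under 1 FPKM in the pulldown, input and si_NC, is counted among the 9 though it was not compared. EIF2AK2, the kinase PKR that halts translation when it binds double-stranded RNA, stood at 17.4 FPKM in the pulldown and 11.5 in input (0.55). OAS3, an oligoadenylate synthetase that activates RNase L, stood at 4.76 FPKM in the pulldown and 2.51 in input (0.71), whereas OAS2 of the same family stood at 1.49 and 1.65 FPKM (-0.09). PML, the organiser of nuclear bodies, stood at 3.12 FPKM in the pulldown and 1.20 in input (0.91).

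The IFIT genes stood close to equal levels in the pulldown and input. IFIT5 stood at 8.91 FPKM in the pulldown and 11.1 in input (-0.29), IFIT3 at 13.1 and 13.9 FPKM (-0.08), IFIT1 at 4.77 and 4.39 FPKM (0.10) and IFIT2 at 3.20 and 2.71 FPKM (0.18), so that all 4 were below the median of all genes. The 4 members of the ISG15 system also lay between 0.09 and 0.58, with a median of 0.12. In this system UBE2L6, the enzyme that carries ISG15 to its ligases, stood at 20.4 FPKM in the pulldown and 18.5 in input (0.13), and the ligase HERC5 at 2.13 and 1.94 FPKM (0.09). USP18, the protease that removes ISG15, stood at 1.18 FPKM in the pulldown and 0.789 in input (0.28). The lowest ratio among the members was that of XAF1, a pro-apoptotic partner of XIAP, at 1.55 FPKM in the pulldown and 2.32 in input (-0.38).

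**Figure D3:**
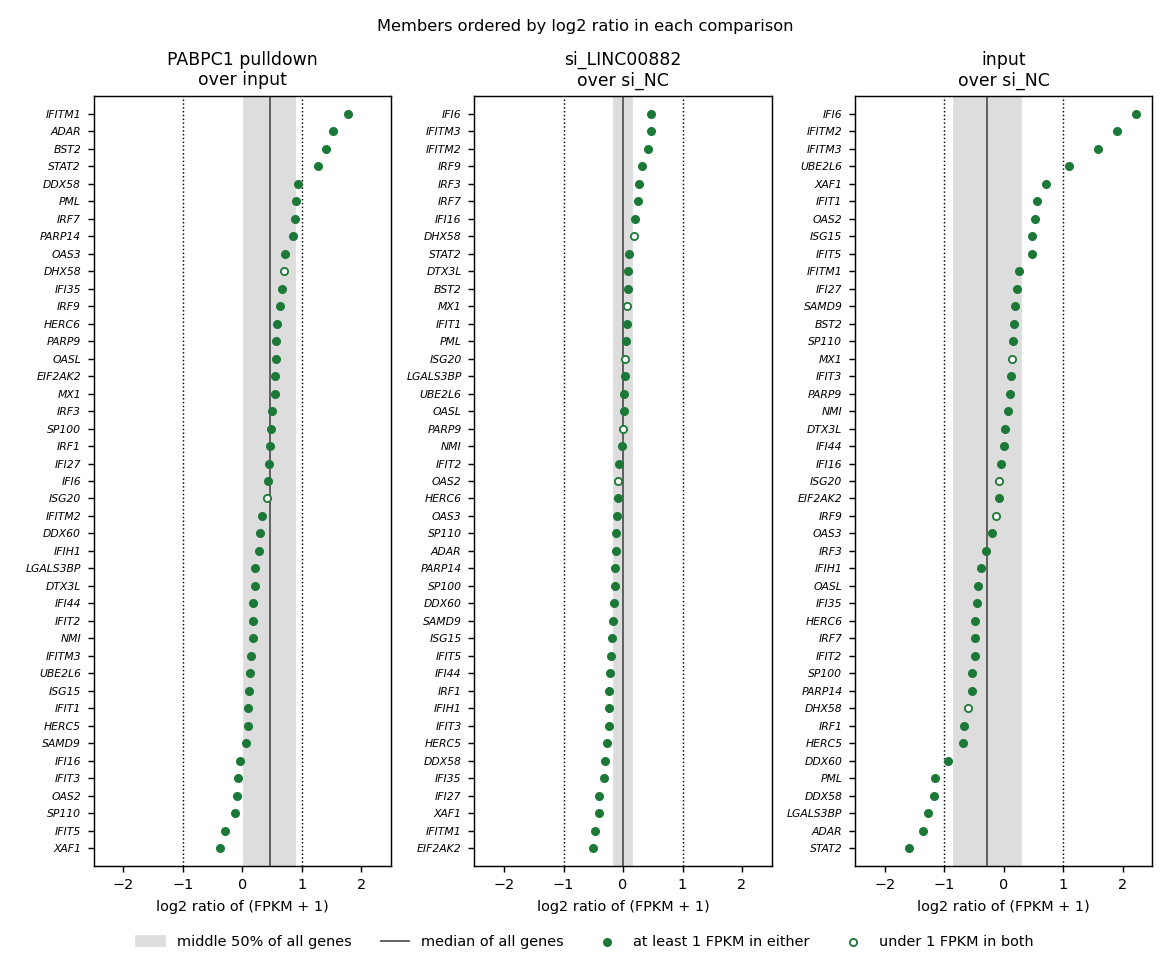
Log2 ratio of FPKM plus 1 for the 43 members, ordered within each panel, for the PABPC1 pulldown over input, si_LINC00882 over si_NC and input over si_NC. The line is the median and the grey band the middle 50% of all genes compared, dotted lines mark 2-fold, and open points are under 1 FPKM in both libraries; 4 members pass 2-fold in the left panel, none in the middle panel and 9 in the right panel.

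The IFITM genes, neighbours that encode very similar proteins, did not move as a block. IFITM3 stood at 179 FPKM in the pulldown and 162 in input (0.15), with 73.9 in si_LINC00882 cells against 53.3 in si_NC cells (0.46). IFITM2 stood at 39.5 FPKM in the pulldown and 31.3 in input (0.33), with 10.5 in si_LINC00882 cells against 7.59 in si_NC cells (0.42). IFITM2 and IFITM3 were thus both high in the pulldown and input and both lower in the transfected cells. IFITM1 was high in the pulldown alone, and it stood lower in si_LINC00882 than in si_NC (-0.48). The level of IFITM3 was 6.79 times that of IFITM1 in the pulldown and 23.2 times in input, and 19.5 times in si_LINC00882 and 9.43 times in si_NC. IFITM3 over IFITM2 was steadier, at 4.55 in the pulldown and 5.18 in input, with 7.06 in si_LINC00882 cells against 7.03 in si_NC cells. These genes are close paralogs, so the division of fragments among them is uncertain.

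**Figure D4:**
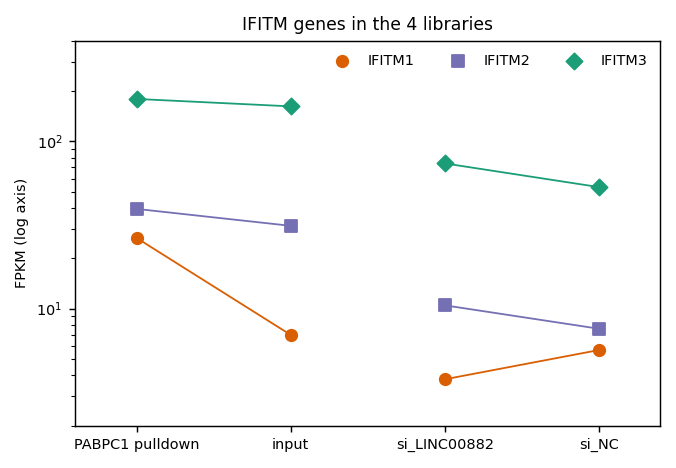
FPKM of IFITM1, IFITM2 and IFITM3 on a log axis in the PABPC1 pulldown, input, si_LINC00882 and si_NC libraries, with lines joining the libraries of a pair. Each point is 1 library; IFITM2 and IFITM3 run nearly in parallel across the 4 libraries, and IFITM1 is at 26.4 in the pulldown and between 3.78 and 6.97 in the other libraries.

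With LINC00882 silenced, no member reached 2-fold in either direction against the control silencer. Among all genes compared 2.01% did, so a count of 0 among 38 members is close to that background. At 1.5-fold, with 1 added to each FPKM, the count was again 0, where 6.8% of all genes were past it. The ratios of the 43 listed members ran from -0.50 for EIF2AK2 to 0.48 for IFI6, and the middle 90% of all genes from -0.50 to 0.47. The median was -0.11 over the 38 members compared and -0.08 over all 43, against -0.01 over all genes compared. Of the 38 compared, 23 (60.5%) were below 0, against 51.1% of all genes compared. Of all 43 listed, 24 were below 0, against 50.6% of all genes listed. The level of LINC00882 was not analysed here, and how far it was reduced is not known.

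Of the 9 RNA sensors and enzymes of double-stranded RNA listed, 7 were below 0, against 51.1% of all genes compared. The 9 include DHX58 and OAS2, which were under 1 FPKM in both libraries and so were not compared. The median of the 9 was -0.12, within the middle 50% of all genes, which ran from -0.16 to 0.15. Over input in place of si_NC, 7 of the 9 were above 0 and their median was 0.45. Of all genes compared over input, 63.0% were above 0 with a median of 0.28. EIF2AK2 stood at 8.37 FPKM in si_LINC00882 and 12.2 in si_NC, IFIH1 at 1.40 and 1.82 FPKM (-0.23), DDX60, a helicase linked to RIG-I signalling, at 2.096 and 2.43 FPKM (-0.15) and ADAR at 21.3 and 23.2 FPKM (-0.12). DHX58 was on the other side, at 0.950 FPKM in si_LINC00882 and 0.724 in si_NC (0.18), under 1 FPKM in both. IFI27, a small mitochondrial and nuclear-envelope protein gene, stood at 0.652 FPKM in si_LINC00882 and 1.18 in si_NC (-0.40), and XAF1 at 0.528 and 1.02 FPKM (-0.41). Both passed the minimum only through si_NC. Higher levels were seen for IFI6, at 4.57 FPKM in si_LINC00882 and 3.01 in si_NC, and for IFITM2 and IFITM3. The factors IRF9 (1.26 and 0.811 FPKM, 0.32), IRF3 (8.09 and 6.58 FPKM, 0.26) and IRF7 (1.84 and 1.38 FPKM, 0.25) were also higher in si_LINC00882 than in si_NC, while IRF1, the factor shared with interferon gamma signalling, was lower (3.48 and 4.25 FPKM, -0.23). STAT2 (5.36 and 4.91 FPKM, 0.11) and PML (4.04 and 3.88 FPKM, 0.05) stood near equal levels. All of these differences are smaller than 1.5-fold on the log2 scale used, which adds 1 to each FPKM. With a pseudocount of 0.1, XAF1 (-0.84), IFI27 (-0.77) and IFI6 (0.59) were past 1.5-fold.

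Input and si_NC, which had neither a knockdown nor a pulldown, differed more at these genes than the silencer pair did. Of 39 members compared, 4 stood 2-fold or more higher in input and 5 lower. The minimum was passed only through si_NC by 5 members (HERC6, DDX60, OASL, IRF7 and STAT2), of which STAT2 is among those 2-fold lower, and only through input by PARP9 and OAS2. Among all genes compared 5.95% were 2-fold higher and 19.2% lower, 25.1% in all, so the 9 members are close to that background. IFI6 stood at 17.8 FPKM in input and 3.01 in si_NC (2.23). IFITM2 (1.91), IFITM3 (1.58) and UBE2L6 (18.5 and 8.14 FPKM, 1.09) were also higher in input. The members lower in input were STAT2 (0.970 and 4.91 FPKM, -1.59), ADAR (8.51 and 23.2 FPKM, -1.35), LGALS3BP (26.5 and 65.8 FPKM, -1.28), DDX58 (3.14 and 8.30 FPKM, -1.17) and PML (1.20 and 3.88 FPKM, -1.15). The median was -0.04 over the members compared and -0.29 over all genes. Treatment and handling of the lysate and of the transfected cells cannot be told apart here.

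The remaining members held low to moderate levels, and none reached 2-fold in any of the 3 comparisons. PARP9 and DTX3L, which encode an ADP-ribosyltransferase and its partner ubiquitin ligase, share a start region, yet their levels differed in every library. DTX3L stood at 6.64 FPKM in the pulldown and 5.61 in input (0.21), with 5.93 in si_LINC00882 cells against 5.51 in si_NC cells (0.09). PARP9 stood at 2.03 FPKM in the pulldown and 1.04 in input (0.57), with 0.911 in si_LINC00882 cells against 0.902 in si_NC cells (0.01). PARP14, a larger enzyme of the same family, stood at 3.15 FPKM in the pulldown and 1.29 in input (0.86), with 2.001 in si_LINC00882 cells against 2.31 in si_NC cells (-0.14). IFI16, a sensor of DNA, was among the steadiest members, at 15.3 FPKM in the pulldown, 15.6 in input, 18.8 in si_LINC00882 cells and 16.1 in si_NC cells. NMI, a partner of STAT proteins, was likewise even, between 4.98 and 6.23 FPKM, whereas its binding partner IFI35 stood at 3.08 FPKM in the pulldown and 1.57 in input (0.67), with 1.79 in si_LINC00882 cells against 2.496 in si_NC cells (-0.33). The nuclear body protein gene SP100 stood at 5.203 FPKM in the pulldown and 3.45 in input (0.48), with 4.82 in si_LINC00882 cells against 5.42 in si_NC cells (-0.14), and its relative SP110 stayed between 1.15 and 1.61 FPKM. For HERC6, OASL, SAMD9 and IFI44 the pulldown held the highest level of the 4 libraries. HERC6, a relative of the ligase HERC5, stood at 1.45 FPKM in the pulldown and 0.644 in input (0.58). OASL, a synthetase relative without that enzyme activity, stood at 1.26 FPKM in the pulldown and 0.529 in input (0.56). SAMD9 and IFI44 were at their lowest in si_LINC00882 cells, with 1.85 against 2.19 FPKM in si_NC cells (-0.16) and 3.03 against 3.69 FPKM in si_NC cells (-0.22).

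Across the 4 libraries, 25 of the 43 members (58.1%) were highest in the pulldown, where 43.9% of all genes were. Input held the lowest level for 21 members (48.8%), against 54.8% of all genes. si_LINC00882 was lowest for 12 members (27.9%, against 17.6% of all genes) and si_NC for 9 (20.9%, against 18.8%). The 4 membrane restriction factors were above both controls in the pulldown, with ratios over si_NC from 1.58 to 2.24. Over input their ratios ran from 0.15 to 1.78, and IFITM3 (0.15) and IFITM2 (0.33) lay below the median of all genes (0.47). Among all genes 7.16% were 2-fold higher in the pulldown than in si_NC, and 6 of the 41 members compared were, the others being IFI6 (2.66) and UBE2L6 (1.23). LGALS3BP was 2-fold lower there (-1.06), as were 2.48% of all genes.

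Genes of the pathway outside the list were taken from a fixed list of 36 signalling genes (receptors, kinases, adaptors and inhibitors) and a fixed list of 32 other induced genes. Of the signalling genes, 6 of 31 compared stood 2-fold higher in the pulldown than in input and none lower, against 19.6% higher and 2.37% lower among all genes compared, so the count is near that background. The highest was IKBKE, which encodes IKKε, at 18.3 FPKM in the pulldown and 3.16 in input (2.21). The phosphatases PTPN11 (68.6 and 28.6 FPKM, 1.23) and PTPN1 (52.2 and 21.9 FPKM, 1.22) and STAT3 (14.5 and 5.84 FPKM, 1.18) followed, with TYK2 (6.71 and 2.66 FPKM, 1.08) and TICAM1 (1.03), an adaptor of toll-like receptors named after its values were seen. With the pair centred on the median of all genes, PTPN11 (0.76), PTPN1 (0.75), STAT3 (0.72) and TYK2 (0.61) were under 2-fold and IKBKE (1.75) was not. All 6 stood higher in si_NC than in input. The si_NC levels were 51.9 FPKM for PTPN1, beside the pulldown, 51.7 for PTPN11 and 9.95 for STAT3. They were 8.96 FPKM for TYK2, 9.13 for IKBKE and 6.31 for TICAM1. For input over si_NC, 3 of 31 signalling genes compared were 2-fold lower and 2 higher, where 19.2% of all genes were lower and 5.95% higher. TYK2 (-1.44), IKBKE (-1.29) and PTPN1 (-1.21) were those 2-fold lower in input than in si_NC, and TRIM25 (11.2 and 21.9 FPKM, -0.91) stood short of it. IFNGR2, a chain of the interferon gamma receptor, was 2-fold higher in input than in si_NC (34.4 and 11.5 FPKM, 1.49), as was SOCS1 (1.33), an inhibitor of JAK kinases named after its values were seen.

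With LINC00882 silenced, none of 31 signalling genes compared reached 2-fold. Among those at 5 FPKM or more in either library, the largest ratios were those of STAT3 (15.5 FPKM in si_LINC00882 and 9.95 in si_NC, 0.60), IFNGR2 (15.9 and 11.5 FPKM, 0.43), TRIM25, the ligase that activates RIG-I (16.01 and 21.9 FPKM, -0.43), the phosphatase PTPN2 (6.25 and 7.996 FPKM, -0.31) and the TBK1 adaptor TANK (4.50 and 5.74 FPKM, -0.29). Among the other induced genes 1 of 25 compared was 2-fold lower and 1 higher, where 2.01% of all genes compared were past 2-fold in either direction. The lower one was B2M, the light chain of class I molecules, at 10.9 FPKM in si_LINC00882 and 23.2 in si_NC (-1.02, or -0.82 and so under 2-fold with a pseudocount of 5), and the higher one was APOL1 (3.72 and 1.19 FPKM, 1.11), an apolipoprotein named after its values were seen. Among those at 5 FPKM or more, TRIM14 (-0.55), PARP12 (-0.46), SAMHD1, which breaks down deoxynucleoside triphosphates (-0.40), and APOL2 (0.35) followed. Below that level, IFI30, named there after its values were seen, stood at 2.09 FPKM in si_LINC00882 and 4.46 in si_NC (-0.82). B2M stood at 54.0 FPKM in input, above si_NC (1.19).

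In the pulldown over input, 4 of 27 other induced genes compared were 2-fold higher and 1 lower, where 19.6% of all genes were higher and 2.37% lower. LY6E, a surface protein that restricts some viruses and aids others, stood at 21.5 FPKM in the pulldown and 2.07 in input (2.87), and its levels of 20.4 FPKM in si_LINC00882 and 22.3 in si_NC lay beside the pulldown. TRIM14 (14.2 and 4.36 FPKM, 1.501), the helicase gene ZNFX1 (11.9 and 5.30 FPKM, 1.04) and TNFSF10, the death ligand TRAIL (31.8 and 15.2 FPKM, 1.01), were the others, of which ZNFX1 (0.57) and TNFSF10 (0.55) were under 2-fold with the pair centred. IFI30 (4.62 and 9.37 FPKM, -0.88) had a lower level. The gene 2-fold lower was the exonuclease TREX1 (0.942 and 3.11 FPKM, -1.08), named after its values were seen. For input over si_NC, 4 of 27 other induced genes compared were 2-fold lower and 2 higher, where 19.2% of all genes were lower and 5.95% higher. LY6E was lowest (-2.92), ZNFX1 (-1.20), MOV10 (-1.36) and HELZ2 (-1.15) were also 2-fold lower, and TREX1 (1.25) and B2M were 2-fold higher. The RNA helicase genes MOV10 and HELZ2 were named after their values were seen. TRIM14 (-0.998) stood just short of 2-fold lower and IFI30 at 0.93.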

How the data were processed

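Per the file headers, the authors' tables give each gene's level as FPKM, 1 table per library, with 11712 genes for the pulldown and input and 11695 for si_LINC00882 and si_NC. Tools in the submitters' processing notes, which state no role or order, are StringTie 1.3.3, HISAT2 2.1.0, cutadapt 1.17 and FastQC 0.11.7, and the build is GRCh37. The depth, the filters, the annotation and whether strand was used were not given in the sources used here. Intervals and detection limits were therefore left out. Groups were taken from the sample labels, with 1 library each. Values were used as deposited, and log2 ratios of FPKM plus 1 were computed for genes that reached 1 FPKM in a library of the pair, with the same counts and medians over all genes beside those of the members. The members, lists and rules were chosen with earlier results of these data known. All members may be named, and of each further list in each comparison the 5 with the largest absolute ratios that reached 5 FPKM. One gene of the signalling list is not reported here and was left out of its counts.

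Symbols were matched to RefSeq (GRCh38.p14), 43 of 43 members. That build differs from the authors', so it served only for names, for gene spans and their overlaps, and for the start-site windows searched and printed. The span of 10 members overlaps another listed gene, which makes their values uncertain. They are DTX3L and PARP9, which overlap each other, IFIT1, IFIT2, IFIT3 and IFIT5 (LIPA), IFI16 (AIM2), EIF2AK2 (GPATCH11), SP110 (SP140) and IRF3 (BCL2L12). The same limit holds for TRIM14 (NANS), TREX1 (ATRIP) and IFNGR2 (TMEM50B) among the further pathway genes given with values. The ratio and count steps were tested on simulated data, with changes larger than 2-fold in genes at 5 FPKM or more. That test does not cover genes below that level or smaller changes. Alternatives were other pseudocounts, minimum levels, scalings, fold rules and control libraries. The software was Python 3.11.15 with pandas 2.3.3, numpy 2.4.6 and matplotlib 3.10.9.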

Additional observations from a re-analysis of the deposited data

How the results depend on the processing

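For si_LINC00882 over si_NC the count of 0 members at 2-fold was the same with pseudocounts of 0.1 and 5 and every minimum level. Both scalings and leaving out overlapping members also gave 0. So did the 1.5-fold and 3-fold rules, both with a pseudocount of 1 only. With input as the control the count became 9 of 40 (25.1% of all genes). The median of -0.11 for si_LINC00882 over si_NC moved to -0.0018 with a minimum of 5 FPKM and turned to 0.079 over input. The pulldown count of 4 over input became 12 with a pseudocount of 0.1, 2 with the pair centred on its median, 7 over si_NC, 11 at 1.5-fold and 1 at 3-fold. Rescaled without mitochondrially encoded genes it was again 4. The pulldown median of 0.43 became 0.53 with a pseudocount of 0.1, 0.19 with 5, 0.27 with a minimum of 5 FPKM, 0.23 over si_NC, and -0.039 when centred. Over si_NC, 4 genes 2-fold higher over input turned negative, namely TYK2 (-0.37), STAT2 (-0.32), ZNFX1 (-0.16) and LY6E (-0.050). For input over si_NC the count of 9 became 5 with a pseudocount of 5 and 3 at 3-fold, and the median of -0.04 became 0.10 with a minimum of 5 FPKM, 0.24 when centred and -0.38 without overlapping members. Beyond the changes that follow from each rule's construction, the cause was not tested. The share of members with a response element match was 65.7%, and 57.1% with the longer letters. The depth is unknown, so it cannot be said how far counting error limits the members under 1 FPKM.

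No paired analysis was possible because each group is 1 library and the labels carry no replicate numbers.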

Other observations

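The members differ in the span of their genes on the genome (GRCh38.p14), from short genes such as ISG15, IFITM3 and IFITM1 to long ones such as SP100 and DDX60. Across the 43 members, which share the same libraries and are not independent, Spearman's rho between span and the log2 ratio was -0.43 for input over si_NC, -0.30 for si_LINC00882 over si_NC and 0.02 for the pulldown over input. For input over si_NC, the 22 members of the shorter spans had a median ratio of 0.15 and the 21 of the longer spans -0.38. For si_LINC00882 over si_NC the medians were 0.02 and -0.11. For the pulldown over input they were 0.27 for the shorter and 0.54 for the longer spans. The first 2 of these comparisons share the si_NC library.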
